A study of Mus musculus with 3 samples.

Results

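The genes described here are 4 secretoglobins, Scgb1a1, Scgb3a1, Scgb3a2 and Scgb1c1, followed by library and by cell class in single-cell RNA libraries of injured mouse lung. They are 4 of the 34 features whose symbol begins with Scgb among the 32287 features of the files. All 4 had UMIs (unique molecular identifiers, 1 per captured RNA molecule). Of the 30 other Scgb features, 2 had any UMI in the kept barcodes, Scgb2b7 and Scgb2b20 with 1 UMI each, and 0 reached 30 UMIs. The members were chosen by name, with earlier results of these data known. UMIs were counted in barcodes with 500 or more genes and at most 15% mitochondrial UMIs, in classes of cells gated on other marker genes, and each level was set against the UMIs seen in immune cells of the same library.

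Secretoglobins are small secreted proteins that pair into disulfide-linked dimers and are released by the secretory cells of mucosal linings. Scgb1a1, also called CCSP, CC10 or uteroglobin, is the product by which airway club cells are known and a major protein of airway lining fluid. Scgb3a2 is a secretory protein of the conducting airway whose gene is a known target of the transcription factor Nkx2-1. Scgb3a1 is known from secretory cells of the larger airways. Scgb1c1 is a less studied member, known from olfactory and upper airway glands. Alveolar type 2 (AT2) cells make surfactant, and bronchioalveolar stem cells (BASCs) at the junction of airway and alveolus are defined by Scgb1a1 together with the surfactant gene Sftpc.

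All 3 libraries came from whole lungs of Scgb1a1-CreER;Sftpc-DreER;R26-TLR mice 4 weeks after bleomycin, which injures the alveoli. The Club-Tracer library was sorted for tdTomato+ cells, the BASC-Tracer library (BASCs-Tracer in the labels) for ZsGreen+ tdTomato+ cells, and the AT2-Tracer library for ZsGreen+ cells. CreER acts through Scgb1a1 and DreER through Sftpc, so Scgb1a1 itself set the label by which the Club-Tracer and BASC-Tracer cells were sorted. There was 1 library for each label and no uninjured library, so no difference between libraries could be checked in replicates, no p-value is given, and the labels do not say how many mice each library holds. Levels are CPM, the UMIs of a gene scaled to a common total of UMIs over all genes, summed over the cells of a class in a library. Their 95% intervals are exact Poisson intervals, those of ratios are exact conditional intervals, and both cover counting error only. The chemistry reads the 5′ ends of transcripts, so UMIs do not scale with transcript length and genes may be compared on this scale.

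After filtering, 3196 Club-Tracer, 1402 BASC-Tracer and 5859 AT2-Tracer barcodes were kept, 10457 in all, with medians of 15406, 15222 and 9682 UMIs. The files held 62570890, 29013077 and 72256580 UMIs before filtering, for Club-Tracer, BASC-Tracer and AT2-Tracer. Epithelial cells made up 91.3%, 81.2% and 61.1% of the kept barcodes and immune cells 2.07%, 8.84% and 31.1%, so the sorted libraries were not purely epithelial. The immune barcodes numbered 66, 124 and 1820. The libraries shared 6 (Club-Tracer and BASC-Tracer), 23 (Club-Tracer and AT2-Tracer) and 14 (BASC-Tracer and AT2-Tracer) barcodes. Epithelial barcodes that fell between gates, 414, 178 and 446, were given no class, and 207, 133 and 428 barcodes passed no compartment gate. A class name means that its marker list led in the cell, except that proliferating cells were set apart by their own score, whichever list led. The marker lists' own genes were among the 10 leading genes of every class, but transitional cells were also led by Pyy, Tagln and Myl9.

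Scgb3a1 lies on chromosome 11 (chr11:49663610-49665118, plus strand, mm10; ENSMUSG00000064057) and Scgb1c1 on chromosome 7 (chr7:140845547-140846769, plus strand, mm10; ENSMUSG00000038801). Both are protein-coding genes, with 4 exons in the longest Scgb3a1 transcript and 3 in that of Scgb1c1. RefSeq promoter sequences, from 250 bases before to 50 bases after the start site on GRCm38.p6, were used for 2 of the 4 members. The windows of the other members are not shown here. Scgb3a1 was high in a few airway cells, and Scgb1c1 was low but present in AT2 cells of every library. Capitals mark matches to the letters CACTTGA (Nkx2-1) and TGTTTNC (Foxa factors), searched on both strands; the searches for TTGCNNAA (C/EBP) and TATAAA found no match in either window. The Scgb3a1 window is chr11:49663345-49663644 and the Scgb1c1 window chr7:140845315-140845614, both on the plus strand.
Scgb3a1: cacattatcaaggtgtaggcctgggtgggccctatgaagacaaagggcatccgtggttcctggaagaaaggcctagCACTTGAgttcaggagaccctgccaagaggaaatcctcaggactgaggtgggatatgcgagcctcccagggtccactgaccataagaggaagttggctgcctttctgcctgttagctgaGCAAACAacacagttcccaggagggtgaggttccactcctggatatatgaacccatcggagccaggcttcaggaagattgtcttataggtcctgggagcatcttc
Scgb1c1: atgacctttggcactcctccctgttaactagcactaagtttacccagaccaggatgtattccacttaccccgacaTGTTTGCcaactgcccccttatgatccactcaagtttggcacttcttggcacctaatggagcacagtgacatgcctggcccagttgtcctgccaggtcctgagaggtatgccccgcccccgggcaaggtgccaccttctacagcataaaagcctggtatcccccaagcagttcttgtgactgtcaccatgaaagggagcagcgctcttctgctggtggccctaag

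In the Scgb3a1 window the Nkx2-1 letters begin 174 bases before the start site and the Foxa letters, on the minus strand, 55 bases before it. The Scgb1c1 window holds the Foxa letters 175 bases before the start site and no match to the Nkx2-1 letters. Among 32851 promoter windows of the same length, 3.06% held CACTTGA, 20.5% held TGTTTNC, 10.8% held TTGCNNAA and 13.6% held TATAAA. These are matches of letters and not measured binding sites. Of 31-base stretches of each member's transcripts, 0 occurred in any of the 33 other Scgb genes, so reads of one member had no near-identical copy in the family to be lost to. Gm45785 and C330022C24Rik overlap Scgb1c1, and C330022C24Rik does so on the opposite strand, over the first exon. The strand and UMIs of Gm45785 were not examined here. C330022C24Rik itself had 0 to 2 UMIs in each class sum, and 0 in immune cells. The sources used here do not give how the authors' counting used strand.

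Scgb1a1 was the most abundant of the 4 genes in club cells, where it supplied 35.5% or more of the median cell's captured RNA molecules. Club cells held 381794 CPM in the Club-Tracer library (695 cells) and 352173 CPM in the BASC-Tracer library (117 cells). The median club cell carried 8823 Scgb1a1 UMIs in Club-Tracer and 11503 in BASC-Tracer, 39.9% and 35.5% of the cell's UMIs. Of the 695 Club-Tracer club cells, 687 had 100 or more. The AT2-Tracer library held 5 cells with the club profile, with a median of 10298 Scgb1a1 UMIs. A high Scgb1a1 level per club cell was thus seen in each library, while the number of such cells ran from 695 to 5. The gene (ENSMUSG00000024653) lies at chr19:9083636-9087958 on the minus strand of mm10 and has 3 exons.

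**Figure D1:**
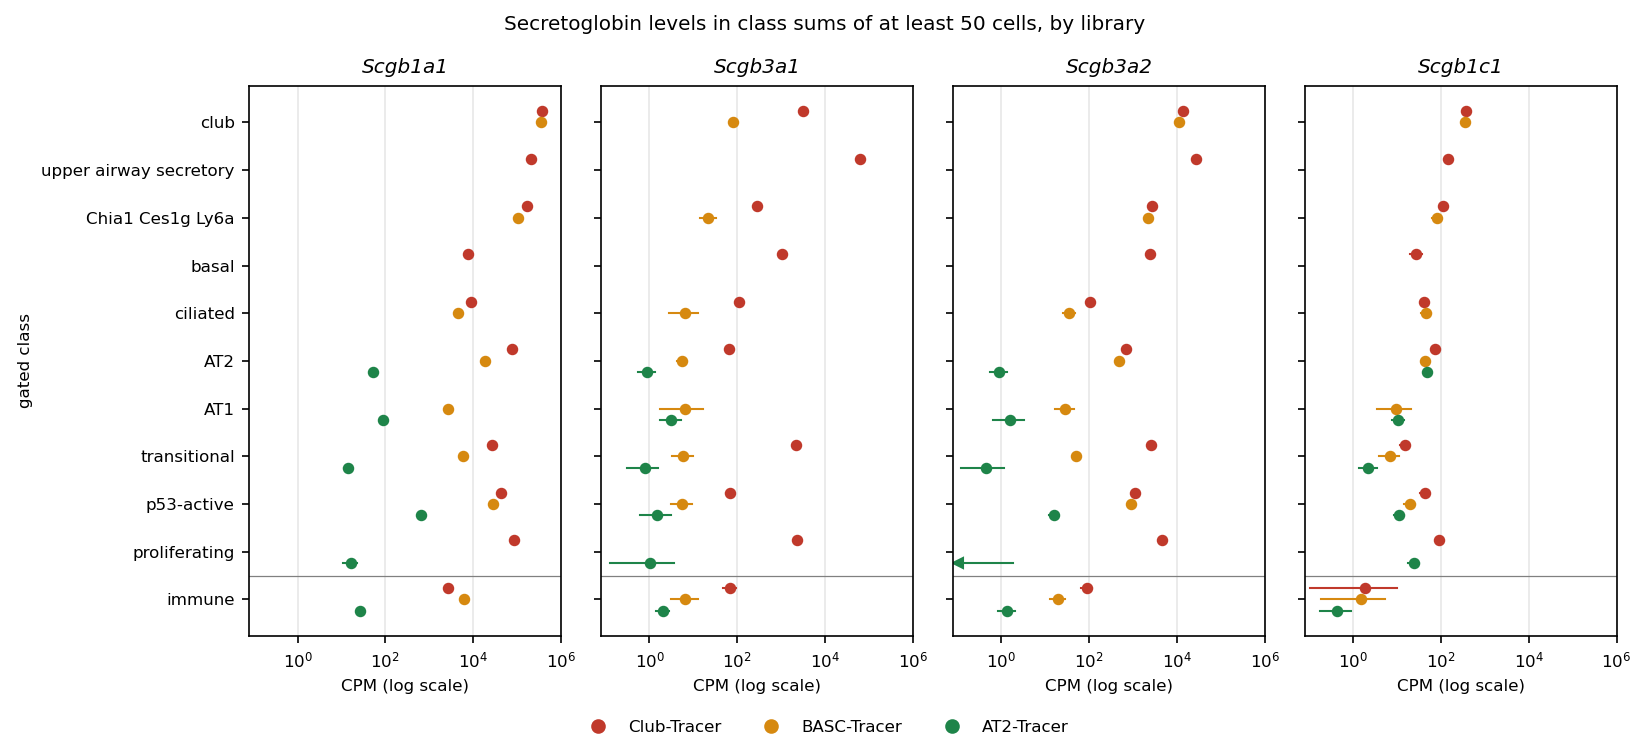
Level of each secretoglobin (CPM, log axis) by cell class, one panel per gene, in Club-Tracer, BASC-Tracer and AT2-Tracer sums, with immune cells as the last class; lines are exact Poisson 95% intervals for counting error, and an arrowhead marks a sum with no UMI. Scgb1a1 spans 381794 CPM in Club-Tracer club cells to 14.0 CPM in AT2-Tracer transitional cells, with 26.9 CPM in AT2-Tracer immune cells. Scgb1c1 stays at 1.81 CPM or less in immune cells of each library.

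Upper airway secretory, basal and ciliated cells, the Chia1 Ces1g Ly6a class and proliferating cells carried less Scgb1a1 than club cells. Upper airway secretory cells, marked by genes such as Bpifa1 and Muc5b, held 210738 CPM in Club-Tracer (107 cells, median 3737 UMIs). Cells marked by Chia1, Ces1g and Ly6a, a secretory state given here by its leading genes, held 175168 CPM in Club-Tracer (210 cells) and 109185 CPM in BASC-Tracer (67 cells). Proliferating Club-Tracer cells held 86430 CPM (80 cells). Over all libraries, the Chia1 Ces1g Ly6a class had median scores of 0.449 for the AT2 and 0.432 for the club marker list. For proliferating cells these were 0.567 and 0.145. Basal cells, the stem cells of the large airways, held 7639 CPM in Club-Tracer, with a median of 39.5 UMIs. Ciliated cells, which move mucus and are not secretory, held 8991 CPM in Club-Tracer and 4497 CPM in BASC-Tracer, with medians of 31 and 16 UMIs.

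Immune cells, which are not known to transcribe Scgb1a1, gave the measure of free RNA, the transcripts from broken cells that enter every droplet. They held 2730 CPM of Scgb1a1 in Club-Tracer, 6353 CPM in BASC-Tracer and 26.9 CPM in AT2-Tracer, with medians of 18, 8 and 0 UMIs. In the BASC-Tracer library 1 immune barcode carried 6157 of the 8645 UMIs, and without it the level was 1868 CPM. A sum was called above immune cells when its CPM was at least 2 times theirs with the lower bound of the ratio over 1. Across all genes and class sums of the libraries, 25.1% of 250986 values passed that rule. Scgb1a1 passed it in 15 of 21 sums of 50 or more cells, in 9 of 9 Club-Tracer sums, in 4 of 7 for BASC-Tracer and in 2 of 5 for AT2-Tracer. BASC-Tracer ciliated cells had 0.708 times the immune level with all immune barcodes and 2.41 times it without the one barcode, and for BASC-Tracer transitional cells these ratios were 0.939 and 3.19.

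AT2 cells differed in Scgb1a1 by library far more than club cells did. The level was 75806 CPM in Club-Tracer (456 cells), 18773 CPM in BASC-Tracer (361 cells) and 53.7 CPM in AT2-Tracer (1437 cells). Medians were 261, 53 and 0 UMIs per cell, with quartiles of 75.75 to 1656, 10 to 197 and 0 to 1. AT2 cells with 1000 or more UMIs made up 27.9% of those in Club-Tracer, 7.48% in BASC-Tracer and 0% in AT2-Tracer, where 73.7% of the AT2 cells had no Scgb1a1 UMI. The interquartile ranges of AT2-Tracer and of the other libraries did not overlap. The Club-Tracer AT2 cells were wide-ranging, with a maximum of 20533 UMIs in 1 cell.

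Set against immune cells of their own library, AT2 cells held 27.8 times as much Scgb1a1 in Club-Tracer (95% interval 26.4 to 29.2), 2.96 times as much in BASC-Tracer (2.89 to 3.02; 10.0 times without the 1 immune barcode) and 1.998 times as much in AT2-Tracer (1.79 to 2.23, just under the rule; 2.28 times, 2.03 to 2.56, without the 1 immune barcode with the most UMIs). Other barcodes gave higher values for free RNA than immune cells did. Barcodes with fewer than 500 genes held 81096 CPM in Club-Tracer, 43639 CPM in BASC-Tracer and 8808 CPM in AT2-Tracer, with medians of 36, 14 and 0 UMIs. Barcodes that passed no compartment gate held 235871 CPM in Club-Tracer, 131904 CPM in BASC-Tracer and 122.7 CPM in AT2-Tracer. By CPM the AT2 cells lay below the low-gene barcodes in every library, and by median UMIs per barcode they lay above them in Club-Tracer and BASC-Tracer. Club-gene RNA moved with the library too, since the 15 club markers summed to 10928 CPM in Club-Tracer, 7100 CPM in BASC-Tracer and 2382 CPM in AT2-Tracer AT2 cells. The 7 pan-immune markers summed to 24.5 to 30.0 CPM in the same cells of each library. The gate holds this level down, because epithelial cells needed an immune score under 0.25. The part of free RNA and of doublets in the AT2 levels was not tested beyond these values.

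**Figure D2:**
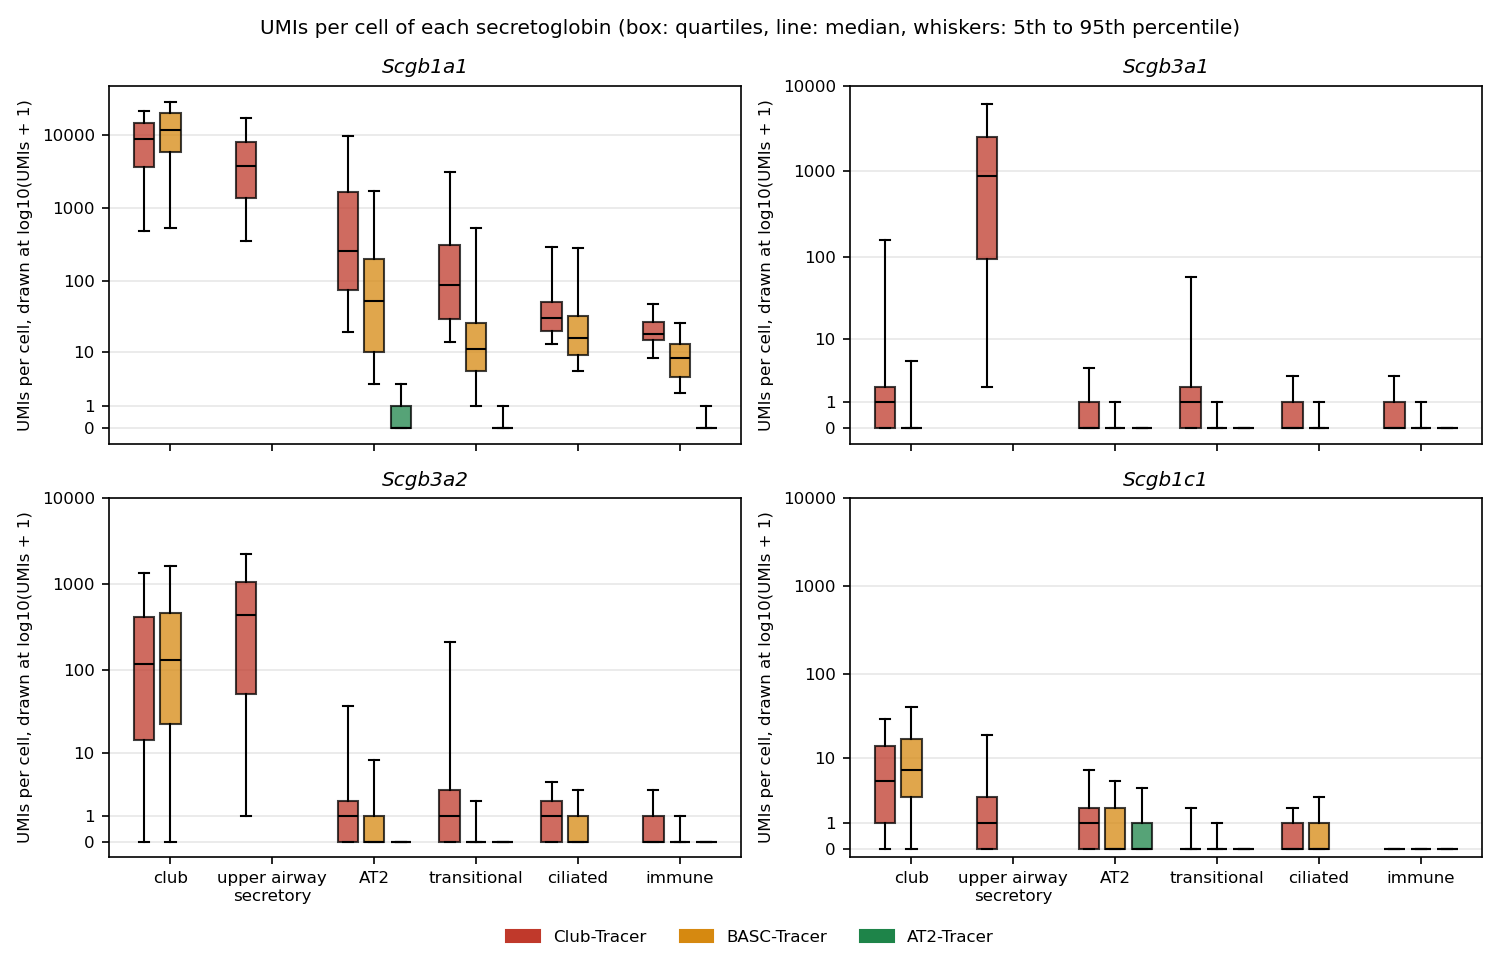
Scgb1a1, Scgb3a1, Scgb3a2 and Scgb1c1 UMIs per cell, drawn at log10(UMIs + 1), in the classes and libraries shown; boxes are quartiles, lines in them medians, and whiskers the 5th to 95th percentile of cells. Scgb1a1 medians in AT2 cells are 261 in Club-Tracer, 53 in BASC-Tracer and 0 in AT2-Tracer, against 18, 8 and 0 in immune cells.

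The ratio of Club-Tracer to AT2-Tracer AT2 cells was 1411 for Scgb1a1 (1336 to 1490), and that of BASC-Tracer to AT2-Tracer AT2 cells was 349 (331 to 369). Immune cells of the Club-Tracer library also held 102 times as much Scgb1a1 as those of the AT2-Tracer library (91.2 to 113). Between these immune sums, 11.4% of 3259 genes at 50 CPM or more in either sum were at least 2-fold higher in Club-Tracer, and 3 of the 3 members that could be compared were among them. With the mean immune UMIs per barcode taken off each side, the Club-Tracer to AT2-Tracer ratio of Scgb1a1 UMIs per AT2 cell was 2687, and without that step it was 1993.

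Transitional cells, an intermediate between AT2 and alveolar type 1 (AT1) cells marked by Krt8 and Cldn4, carried less Scgb1a1 than AT2 cells of the same library. They held 27910 CPM in Club-Tracer (230 cells), 5968 CPM in BASC-Tracer (96 cells) and 14.0 CPM in AT2-Tracer (560 cells), with medians of 86.5, 11 and 0 UMIs. The BASC-Tracer value was 2352 CPM under a stricter and 10139 CPM under a looser gate, and the AT2-Tracer value 135 CPM under a looser gate. The AT2-Tracer value lay below that of its immune cells, at 0.519 times their level. AT1 cells, the thin gas-exchange cells, held 2757 CPM in BASC-Tracer (71 cells) and 87.8 CPM in AT2-Tracer (655 cells), 0.434 and 3.26 times the immune level. Without the 1 immune barcode the BASC-Tracer ratio was 1.48 (1.39 to 1.57). Of the BASC-Tracer AT1 sum 52.5% was in 1 cell, and it was 4791 CPM with 1000 or more genes required. Cells marked by p53 target genes such as Cdkn1a held 44798 CPM in Club-Tracer, 27968 CPM in BASC-Tracer and 641 CPM in AT2-Tracer, and in AT2-Tracer 65.0% of those UMIs were in 1 cell. Under a stricter gate these values were 16642 CPM in BASC-Tracer and 333 CPM in AT2-Tracer.

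Scgb3a1 was concentrated in upper airway secretory cells. The 107 Club-Tracer cells of that class held 62394 CPM with a median of 892 UMIs, and 80 of them (74.8%) had 100 or more UMIs. They were 3.35% of the library's cells and held 61.7% of its Scgb3a1 UMIs. In BASC-Tracer, 5 cells of the class held 87.3% of the Scgb3a1 UMIs, at 42979 CPM. The 320 Club-Tracer cells with the most Scgb3a1 held 99.1% of its UMIs. The same number of top cells held 80.8% of Scgb3a2, 65.8% of Scgb1c1 and 51.3% of Scgb1a1 UMIs, so Scgb3a1 was the most concentrated of the 4 genes in that library.

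Club cells as a class had little Scgb3a1, with a median of 1 UMI in Club-Tracer and 0 in BASC-Tracer, at 3209 and 78.6 CPM. Of the Club-Tracer club cells, 40 (5.76%) had 100 or more UMIs, and the top 5 cells held 53.5% of the sum. These 40 cells had a median of 800 Scgb3a2 UMIs, against 104 in the other 655 club cells, and 9555 Scgb1a1 UMIs, against 8820. A few Scgb3a1-high cells thus made the sum of several classes. In Club-Tracer transitional cells (2137 CPM), 10 of 230 cells had 100 or more UMIs and the top 5 held 76.9%. Under a stricter gate the transitional value was 1252 CPM. In basal cells (1036 CPM), 4 of 120 had 100 or more UMIs, and the value was 382 CPM with 1000 or more genes required and 406 CPM under a stricter gate.

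By CPM, AT2 cells did not hold Scgb3a1 above immune cells in any of the 3 libraries as gated. The levels were 65.6 CPM in Club-Tracer, 5.56 CPM in BASC-Tracer and 0.865 CPM in AT2-Tracer AT2 cells, against 66.9, 6.61 and 2.01 CPM in immune cells. By mean UMIs per barcode, AT2 cells held 1.57 in Club-Tracer, 0.147 in BASC-Tracer and 0.0146 in AT2-Tracer. Immune cells held 0.561, 0.0726 and 0.0181, in barcodes of lower depth. The Club-Tracer AT2 value was 475 CPM with 1000 or more genes required and 506 CPM under a looser gate. Across sums of 50 or more cells, Scgb3a1 lay above immune cells in 6 of 9 Club-Tracer sums, in 2 of 7 for BASC-Tracer and in 0 of 5 for AT2-Tracer, 8 of 21 in all. In Club-Tracer the ciliated, AT2 and p53-marked sums stayed within 2-fold of the immune level, but the p53-marked sum, 67.6 CPM, was 677 CPM with 1000 or more genes required and 536 CPM under a looser gate.

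**Figure D3:**
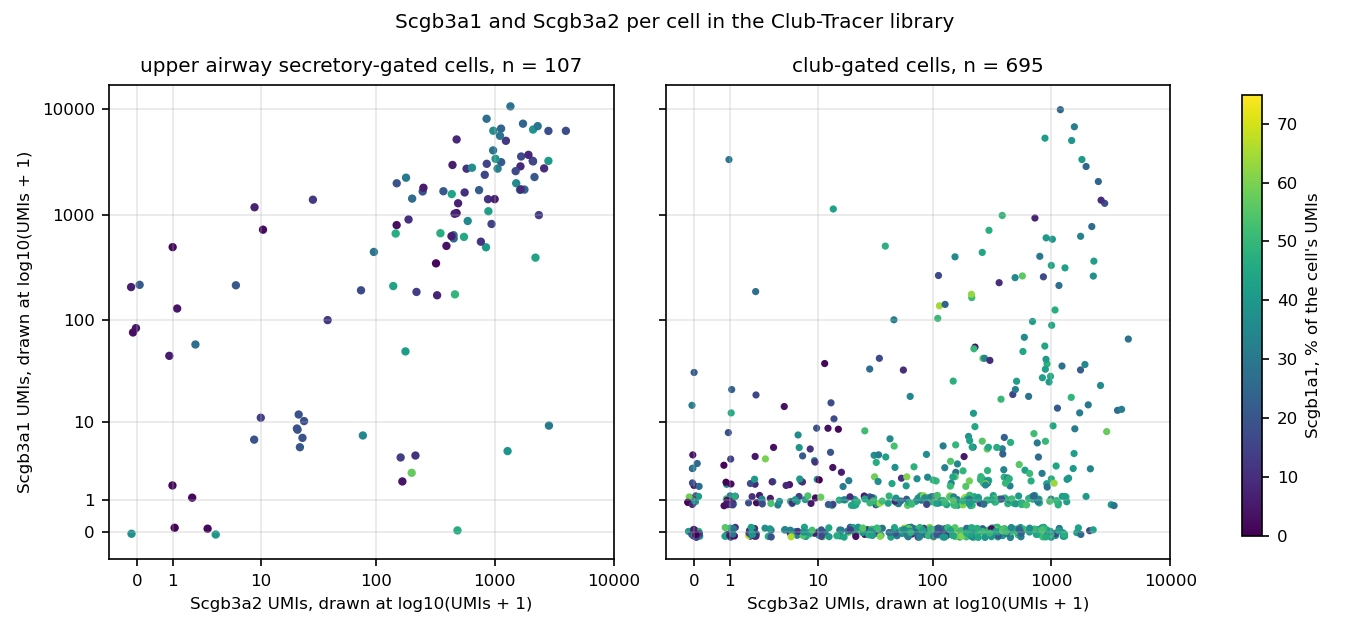
Scgb3a1 (vertical) against Scgb3a2 (horizontal) UMIs per cell in Club-Tracer upper airway secretory (left) and club (right) cells, drawn at log10(UMIs + 1) with a small random offset; each point is 1 cell, coloured by the percent of its UMIs that are Scgb1a1. In upper airway secretory cells 80 of 107 carry 100 or more Scgb3a1 UMIs, and in club cells 40 of 695 do.

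Scgb3a2 was shared by club and upper airway secretory cells. It stood at 27430 CPM in Club-Tracer upper airway secretory cells (median 442 UMIs) and 13739 CPM in Club-Tracer club cells (median 119 UMIs), a ratio of 1.996. BASC-Tracer club cells held 11102 CPM (median 132 UMIs). By the same comparison within Club-Tracer, upper airway secretory cells had 19.4 times the Scgb3a1 level of club cells, 0.552 times the Scgb1a1 level and 0.389 times the Scgb1c1 level. By the 2-fold rule used between sums, Scgb3a1 was higher and Scgb1c1 lower in upper airway secretory cells, while Scgb3a2 and Scgb1a1 fell short of 2-fold; the share of all genes past it was not computed for this pair. Among the 107 upper airway secretory cells, Scgb3a1 and Scgb3a2 had a Spearman correlation of 0.69 across cells. For this, each gene's UMIs were divided by the cell's total without the members. The cells share a library and vary in depth.

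The gene (ENSMUSG00000038791) lies at chr18:43764289-43767399 on the plus strand of mm10. In the Chia1 Ces1g Ly6a, basal and ciliated classes Scgb3a2 was lower. The Chia1 Ces1g Ly6a class held 2658 CPM in Club-Tracer and 2222 CPM in BASC-Tracer, with medians of 4 and 3 UMIs. Basal cells held 2484 CPM, with 7 cells at 100 or more UMIs. Ciliated cells held 104 CPM in Club-Tracer and 34.5 CPM in BASC-Tracer, against 88.6 and 19.8 CPM in immune cells, and did not reach 2-fold in either library. Scgb3a2 lay above immune cells in 8 of 9 Club-Tracer sums, in 5 of 7 for BASC-Tracer and in 1 of 5 for AT2-Tracer, 14 of 21 in all.

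In AT2 cells Scgb3a2 came to 695 CPM in Club-Tracer, 481 CPM in BASC-Tracer and 0.865 CPM in AT2-Tracer, with medians of 1, 0 and 0 UMIs. The AT2-Tracer level lay under that of its immune cells, 1.34 CPM. A few cells carried the sums, since the top 5 AT2 cells held 57.8% of the UMIs in Club-Tracer and 89.2% in BASC-Tracer. After each cell was thinned to 1500 UMIs, 15.5% of AT2 cells in Club-Tracer had a Scgb3a2 UMI, against 14.8% of immune cells, and in BASC-Tracer 12.7% did, against 4.17%. The Club-Tracer AT2 share was close to that of immune cells, while the AT2 sum was 7.85 times the immune level. Without thinning, 38.4% of Club-Tracer AT2 cells had no Scgb3a2 UMI, against 56.1% of immune cells. The AT2 cells were deeper, and the part of free RNA in these shares was not tested. Under a stricter gate the Club-Tracer AT2 level was 336 CPM. Transitional cells held 2514 CPM in Club-Tracer, 50.3 CPM in BASC-Tracer and 0.440 CPM in AT2-Tracer, and 17 of the 230 Club-Tracer cells had 100 or more UMIs. The BASC-Tracer transitional value was 7.60 CPM under a stricter and 355 CPM under a looser gate.

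Scgb1c1 was low in every class but lay above immune cells in all 21 of the sums of 50 or more cells. Club cells held 369 CPM in Club-Tracer and 353 CPM in BASC-Tracer, with medians of 5 and 7 UMIs, and the 5 AT2-Tracer club cells held 435 CPM. Immune cells held 1.81 CPM in Club-Tracer, 1.47 CPM in BASC-Tracer and 0.426 CPM in AT2-Tracer, which rest on 1, 2 and 7 UMIs. Ratios to so few UMIs have wide intervals, and with the 24 lymphocytes alone as the immune cells 4 of the 9 Club-Tracer sums lay above. Upper airway secretory cells held 144 CPM in Club-Tracer, and the Chia1 Ces1g Ly6a class 110 CPM in Club-Tracer and 78.6 CPM in BASC-Tracer.

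By CPM, AT2 cells held Scgb1c1 at similar levels in the 3 libraries, 72.2 CPM in Club-Tracer, 43.2 CPM in BASC-Tracer and 46.4 CPM in AT2-Tracer. These were 39.9 times (7.14 to 1578), 29.4 times (8.09 to 244) and 109 times (52.7 to 272) the immune level of the same library. The AT2-Tracer library carried the most UMIs behind the value, 1127 in 1437 cells, and AT2 cells held 74.98% of all its Scgb1c1 UMIs while making up 24.5% of its cells. Of the other members, none passed the rule against immune cells in AT2-Tracer AT2 cells with all immune barcodes, and Scgb1a1 did without the 1 with the most UMIs. For each 1000 Scgb1a1 UMIs, AT2 cells held 0.952 Scgb1c1 UMIs in Club-Tracer, 2.30 in BASC-Tracer and 864 in AT2-Tracer, against 0.662, 0.231 and 15.8 in immune cells and 0.966 in Club-Tracer and 1.00 in BASC-Tracer club cells. In Club-Tracer the AT2 ratio was close to that of club cells, and in AT2-Tracer it was not.

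**Figure D4:**
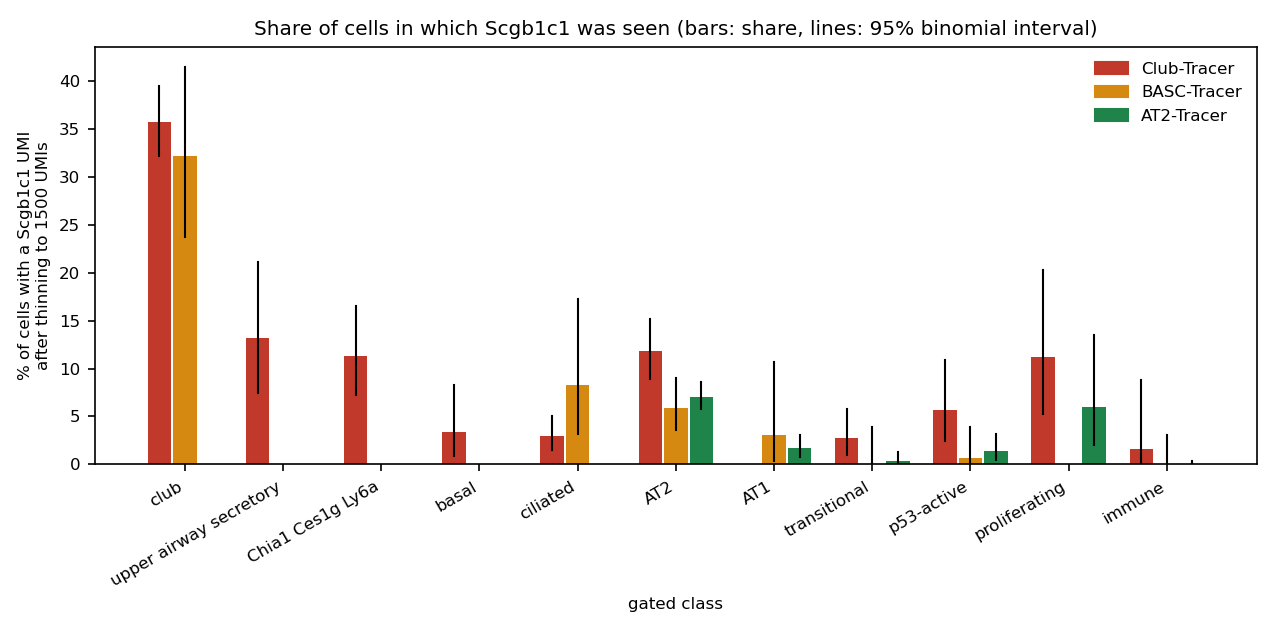
Share of cells with 1 or more Scgb1c1 UMIs after thinning each cell to 1500 UMIs (percent), by class, in Club-Tracer, BASC-Tracer and AT2-Tracer; bars are shares and lines exact Clopper-Pearson 95% intervals. AT2 cells stand at 11.8%, 5.86% and 7.08%, against 1.64%, 0% and 0.0570% in immune cells.

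After thinning to 1500 UMIs, 35.8% of club cells in Club-Tracer (32.2% to 39.5%, Clopper-Pearson) and 32.2% in BASC-Tracer (23.8% to 41.5%) had a Scgb1c1 UMI. For AT2 cells the shares were 11.8% in Club-Tracer (8.95% to 15.2%), 5.86% in BASC-Tracer (3.57% to 9.01%) and 7.08% in AT2-Tracer (5.79% to 8.56%). In immune cells they were 1.64% in Club-Tracer (0.0415% to 8.80%), 0 of 120 cells in BASC-Tracer, which allows a share of up to 2.5%, and 0.0570% in AT2-Tracer. The interval of AT2 cells lay above that of immune cells in all 3 libraries, narrowly in Club-Tracer and BASC-Tracer. The AT2-Tracer AT2 cells that had both a Scgb1a1 and a Scgb1c1 UMI were 7 of 1384, while 98 had a Scgb1c1 UMI. Without thinning, AT2 cells were deeper than immune cells, with medians of 24098, 26985 and 16511 UMIs against 4970, 9391 and 8149.

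Ciliated cells held Scgb1c1 at 40.6 CPM in Club-Tracer and 44.9 CPM in BASC-Tracer, which in BASC-Tracer is close to the 43.2 CPM of AT2 cells. Proliferating cells held 87.6 CPM in Club-Tracer and 23.8 CPM in AT2-Tracer. Transitional, AT1 and p53-marked cells held less than AT2 cells of the same library. Transitional cells held 14.7 CPM in Club-Tracer, 6.71 CPM in BASC-Tracer and 2.20 CPM in AT2-Tracer. AT2 cells thus held 4.90, 6.44 and 21.1 times as much Scgb1c1 as transitional cells, for Club-Tracer, then BASC-Tracer, then AT2-Tracer. AT1 cells held 9.48 CPM in BASC-Tracer and 10.5 CPM in AT2-Tracer. The 49 Club-Tracer AT1 cells held 20.4 CPM, on 6 UMIs.

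In AT2 cells of Club-Tracer, set against those of AT2-Tracer, Scgb1a1, Scgb3a1 and Scgb3a2 were higher by CPM and Scgb1c1 differed by less than 2-fold. Of 2882 genes at 50 CPM or more in Club-Tracer or AT2-Tracer AT2 cells, 2.57% were at least 2-fold higher in Club-Tracer on the log2((CPM + 5)/(CPM + 5)) scale, and 3 of the 4 members were among them. Their CPM ratios were 1411 for Scgb1a1, 75.8 for Scgb3a1 (49.2 to 123; 532 under a looser gate) and 803 for Scgb3a2 (525 to 1298; 372 under a stricter gate). The AT2-Tracer sum behind the Scgb3a2 ratio held 21 UMIs, below the CPM of its immune cells. Its mean per barcode was 0.0146 UMIs, against 0.0121 in immune cells, which held 22 UMIs. With the immune mean taken off, the ratio of UMIs per cell was 6272. That ratio divides by 0.00253 UMIs per cell, so its size is not reliable. The CPM ratio for Scgb1c1 was 1.55 (1.42 to 1.70). For mean UMIs per cell it was 2.20, or 2.19 with the immune mean taken off. For Scgb3a1 neither AT2 sum stood above the immune cells of its library by CPM, and the CPM ratio between those immune cells was 33.3.

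For BASC-Tracer over AT2-Tracer AT2 cells, 1.27% of 2989 genes were at least 2-fold higher. Both members at 50 CPM or more, Scgb1a1 and Scgb3a2, were among them, with ratios of 349 and 555 (363 to 898). For UMIs per cell with the immune mean taken off, the ratios were 641 and 4936. The value for Scgb3a2 again divides by 0.00253 UMIs per cell. Scgb1c1, under 50 CPM in both, had a ratio of 0.931 (0.830 to 1.04). For Club-Tracer over BASC-Tracer AT2 cells, 0.379% of 2900 genes were at least 2-fold higher and 2 of 4 members were called, Scgb1a1 (4.04) and Scgb3a1 (11.8), while Scgb3a2 (1.45, or 0.635 under a stricter gate) and Scgb1c1 (1.67) were not. Leaving the members out of the total moved the share of called genes that were higher from 31.4% to 43.3% in that last comparison. The median of all genes moved by 0.12 on the log2 scale in the comparison of Club-Tracer with AT2-Tracer AT2 cells.

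Transitional cells differed between libraries in the same direction. For Club-Tracer over AT2-Tracer, 3.99% of 3583 genes were at least 2-fold higher and so were 3 of the 3 members compared, with ratios of 1998 for Scgb1a1, 2776 for Scgb3a1 and 5713 for Scgb3a2. Markers of airway cells moved with them: the 15 club markers summed to 12079 CPM in Club-Tracer and 405 CPM in AT2-Tracer transitional cells, with 0 and 4 of them at 0, and the 14 upper airway secretory markers to 2007 and 79.7 CPM, with 0 and 9 at 0. The part of airway cells in this class was not tested. The AT2-Tracer sums behind them held 127, 7 and 4 UMIs, each below the CPM of immune cells, and with 200 or more genes required the Scgb1a1 and Scgb3a2 ratios were 281 and 90.3. For BASC-Tracer over AT2-Tracer, 1.98% of 3645 genes and 2 of 2 members were called, Scgb1a1 at 427 and Scgb3a2 at 114, or 59.5 and 1.79 with 200 or more genes required. Scgb1c1, under 50 CPM in each transitional sum, had ratios of 6.69 in Club-Tracer over AT2-Tracer and 3.05 in BASC-Tracer over AT2-Tracer.

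Club cells of Club-Tracer and BASC-Tracer differed in Scgb3a1 and little in the other members. Of 1837 genes, 0.272% were at least 2-fold higher in Club-Tracer, and 1 of the 4 members was among them, Scgb3a1 at 40.8 (36.6 to 45.7; 21.8 under a stricter gate), whose Club-Tracer sum rests on few cells as given above. The ratios were 1.08 for Scgb1a1, 1.24 for Scgb3a2 and 1.04 for Scgb1c1. Leaving the members out of the total, the share of called genes that were higher was 55.0% in place of 35.7%. Within Club-Tracer, club over AT2 cells, 3.47% of 2452 genes were at least 2-fold higher, and all 4 members were among them, with ratios of 5.04 for Scgb1a1, 48.9 for Scgb3a1 (6.34 under a looser gate), 19.8 for Scgb3a2 (44.5 under a stricter gate) and 5.11 for Scgb1c1. Scgb1a1 fills so much of a club cell that the scaling matters here: 85 genes were higher and 396 lower with all UMIs as the total, and 196 higher and 170 lower without the members in the total, a shift of 0.63 in the median log2 ratio. Without the members in the total, the members' own ratios were 7.74 for Scgb1a1, 75.1 for Scgb3a1, 30.4 for Scgb3a2 and 7.85 for Scgb1c1.

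**Figure D5:**
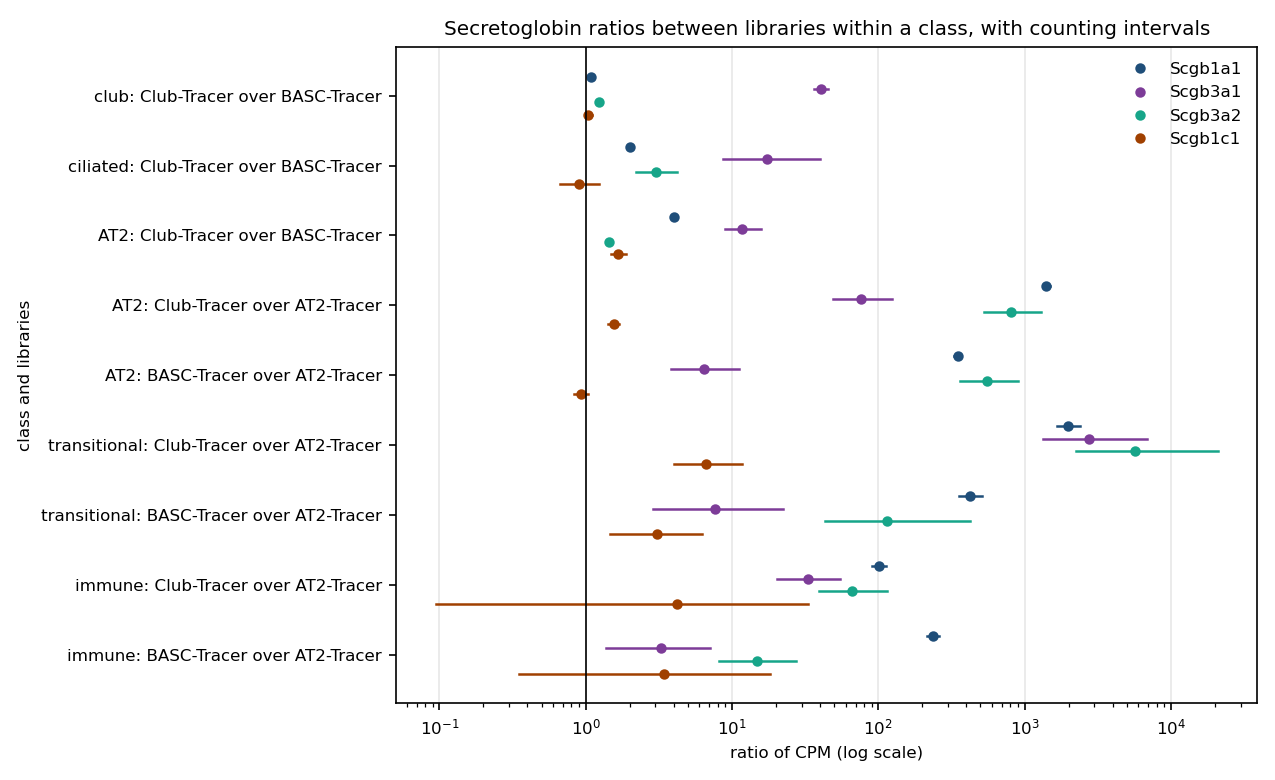
CPM ratio of each member between libraries (log axis) within club, ciliated, AT2, transitional and immune cells, with exact conditional 95% intervals; the line marks a ratio of 1. In AT2 cells the Club-Tracer over AT2-Tracer ratio is 1411 for Scgb1a1 and 1.55 for Scgb1c1.

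Within a class, the members went together to different degrees across cells. Each gene's UMIs were again divided by the cell's total without the members. In club cells Scgb1a1 and Scgb1c1 had a Spearman correlation of 0.61 in Club-Tracer and 0.51 in BASC-Tracer. For Scgb1a1 and Scgb3a2 it was 0.41 and 0.42. In AT2 cells Scgb1a1 and Scgb3a2 had 0.43 in Club-Tracer and 0.57 in BASC-Tracer. In AT2-Tracer AT2 cells, which held 21 Scgb3a2 UMIs, the value was 0.063. These cells share a library, its free RNA and a range of depths. Over 24 class sums, on the log2(CPM + 5) scale, Scgb1a1 and Scgb3a2 were the most alike pair of members (Pearson r = 0.92) and Scgb3a1 and Scgb1c1 the least (r = 0.56).

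The genes whose pattern over the 24 sums was most like that of Scgb1a1, among 6855 genes, were Cyp2f2 (r = 0.94), a cytochrome P450 of club cells, Cckar (0.90), Cldn10 (0.89), Gabrp (0.87) and Fmo2 (0.85). Those most like Scgb3a1 were Ltf (0.93), the antimicrobial lactoferrin, Bpifa1 (0.90), a secreted protein of the upper airway, Klk10 (0.89), Upk3a (0.86) and Atp6v1b1 (0.84). Those most like Scgb3a2 were Gabrp (0.95), Fmo2 (0.93), Pon1 (0.93), Cyp2f2 (0.91) and Cldn10 (0.90). Cyp2f2, Cldn10, Gabrp, Ltf, Bpifa1 and Upk3a were markers used in the gates, which sets part of this likeness. Those most like Scgb1c1 were Acss2 (0.91), an enzyme that makes acetyl-CoA, 1810010H24Rik (0.88), Aldh1a7 (0.88), Gstt3 (0.87) and 5330417C22Rik (0.87), none of them a gate marker. The sums share libraries and free RNA, so these values describe the pattern only.

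Of 16 regulators of airway and alveolar secretory genes, 14 reached 50 CPM in an epithelial sum, and the highest values given for them are those among epithelial sums. The lung lineage factor Nkx2-1 stood at 75.8 CPM in Club-Tracer club cells, and at 170 CPM in Club-Tracer, 211 CPM in BASC-Tracer and 200 CPM in AT2-Tracer AT2 cells. Cebpa, a factor of AT2 and club cells, was highest in BASC-Tracer AT2 cells (307 CPM). Among epithelial sums Cebpb and Cebpd, which respond to inflammation, were highest in basal cells (404 and 376 CPM), as was Stat3 (229 CPM), while Cebpb stood at 671 CPM in BASC-Tracer and 1337 CPM in AT2-Tracer immune cells. Sox2, a factor of the airway lineage, was highest in ciliated cells (73.5 CPM) and Gata6 in AT1 cells (134 CPM). Foxa1, Foxa2, Foxp1, Foxp2, Notch2, Hes1 and Stat6 were the others, with highest values among epithelial sums from 50.6 to 460 CPM. For club over AT2 cells of Club-Tracer, 0 of the 8 regulators compared were at least 2-fold higher and 3 lower, Nkx2-1, Cebpa and Foxp1. Of all 2452 genes compared, 85 were higher and 396 lower. With the members left out of the total, 1 of 11 was higher, Cebpb, and 1 lower, Foxp1. Of all 2957 genes then compared, 196 were higher and 170 lower.

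Of 6 receptors or binding partners named for secretoglobins, 2 reached 50 CPM. Lrp2 (megalin), an endocytic receptor known to take up Scgb1a1 in the kidney, stood at 136 CPM in Club-Tracer, 270 CPM in BASC-Tracer and 319 CPM in AT2-Tracer AT2 cells, and was 1 of 2 lower in club than in AT2 cells under either total. Sdc1, a cell-surface proteoglycan, was highest in basal cells (854 CPM). Scgb1a1 is known as an inhibitor of phospholipase A2, and of 5 phospholipase A2 genes 2 reached 50 CPM. Pla2g1b stood at 313, 271 and 245 CPM in Club-Tracer, BASC-Tracer and AT2-Tracer AT2 cells and was lower in club than in AT2 cells of Club-Tracer under either total. It was the only 1 of the 5 compared. Of all genes compared for this pair, 396 of 2452 were lower, or 170 of 2957 without the members in the total. Pla2g4a reached 110 CPM in ciliated cells.

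All 8 other secretory genes of the airway lining reached 50 CPM. Bpifa1 (12742 CPM), Reg3g (5060 CPM), Bpifb1 (1954 CPM) and Muc5b (988 CPM) were highest in Club-Tracer upper airway secretory cells, the class that held most Scgb3a1, and all of these were among its gate markers. Retnla, a secreted resistin-like protein, stood at 12987 CPM in Club-Tracer and 11974 CPM in BASC-Tracer club cells. Cyp2f2 stood at 7513 CPM in Club-Tracer and 8905 CPM in BASC-Tracer club cells, and at 945, 486 and 10.0 CPM in Club-Tracer, BASC-Tracer and AT2-Tracer AT2 cells. The surfactant protein gene Sftpd was highest in AT2-Tracer AT2 cells (3985 CPM), and the lysozyme gene Lyz2 in Club-Tracer AT2 cells (21262 CPM). For club over AT2 cells of Club-Tracer, Retnla and Cyp2f2 were higher and Lyz2 and Sftpd lower of 5 compared. Of all 2452 genes compared, 85 were higher and 396 lower. With the members left out of the total, Bpifa1 was higher as well and Sftpd was no longer lower. Of all 2957 genes then compared, 196 were higher and 170 lower. Cyp2f2 and Sftpd were gate markers of these classes, so their differences follow from the gate.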

How the data were processed

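Single-cell 5′ RNA libraries of sorted lung cells were deposited as matrices of UMI counts (whole numbers per gene and barcode, not normalized), made with Cell Ranger, per the file headers; the submitters' processing notes name Cell Ranger 6.1.1 and mm10. An annotation release is not named in the sources used here, and gene positions and exons were read from GENCODE on the same build. The Club-Tracer library held 5304 barcodes, BASC-Tracer 2439 and AT2-Tracer 8884, of which 1872, 959 and 2686 had fewer than 500 genes and 236, 78 and 339 more had over 15% mitochondrial UMIs; these were left out.

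The members, marker lists and pathway list were chosen with earlier results of these data known. Each cell was scored for each marker list by the mean log-transformed UMIs per 10000, with the members taken out of the total and each gene capped at its 75th percentile among cells that held it. Immune cells needed an immune score of at least 0.3 and an epithelial score under 0.3, and epithelial cells an epithelial score of at least 0.25 and an immune score under 0.25, with no endothelial or fibroblast score at 0.3. An epithelial cell took the class with the highest score, scaled to the 99th percentile, where that was at least 0.5 and led the next by 0.05; proliferating cells were set apart first. The gate rule was set after seeing the data, and the members are in none of its lists. The gap to the next class was under 0.05 for 364, 151 and 378 epithelial cells and 0.05 to 0.1 for 351, 127 and 330. Doublets marked by Scrublet or by score rank, 87, 17 and 101 past the other filters, were kept, and leaving them out was an alternative.

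UMIs were summed per class and library, and sums of 50 or more cells were compared. No test was run. Genes at 50 CPM or more in either sum were called higher at a log2((CPM + 5)/(CPM + 5)) of 1 or more, a size and not a test, which understates differences of low genes. A count of 0 allows up to 3 counts. For shares, cells were thinned to 1500 UMIs and shallower cells left out. Named genes were the members, the 5 genes with the highest Pearson correlation with each over sums of 50 or more cells, and the genes of the pathway list at 50 CPM or more in an epithelial sum. The comparison of sums was tested on simulated counts. Work was done in Python 3.11.15 with numpy 2.4.6, scipy 1.17.1, pandas 2.3.3, scanpy 1.11.5 and matplotlib 3.10.9.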

Additional observations from a re-analysis of the deposited data

Results flagged for a closer look

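Scgb3a2 in AT2 cells, set against transitional cells of the same library, lay in opposite directions in 2 libraries. AT2 cells held 0.277 times the CPM of transitional cells in Club-Tracer and 9.54 times it in BASC-Tracer. The difference was not tested. The Club-Tracer transitional sum rested on 17 of 230 cells with 100 or more UMIs, and in BASC-Tracer the top 5 AT2 cells held 89.2% of the AT2 sum.

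The barcodes with fewer than 500 genes, which no comparison of classes used, held all 4 members. Scgb1a1 stood at 81096 CPM in Club-Tracer, 43639 CPM in BASC-Tracer and 8808 CPM in AT2-Tracer. Scgb3a1 stood at 1764, 231 and 81.9 CPM in these libraries, Scgb3a2 at 2560 (2559.5), 1031 and 207 CPM, and Scgb1c1 at 47.3, 40.6 and 15.4 CPM. For Scgb1c1 the AT2 cells, at 72.2, 43.2 and 46.4 CPM, lay above these barcodes in Club-Tracer and AT2-Tracer; in BASC-Tracer the counting intervals overlapped (39.2 to 47.6 CPM in AT2 cells, 28.6 to 56.0 CPM in the low-gene barcodes).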

How the results depend on the processing

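No paired analysis was possible because each lineage has 1 library, and no library could be left out. Of the counts of sums above immune cells, 148 of 160 stayed within 1.5 times of the reported count. With a factor of 5 in place of 2, Scgb1a1 lay above in 2 BASC-Tracer and 1 AT2-Tracer sums and Scgb3a1 in 1 BASC-Tracer sum. With a looser gate, Scgb1a1 lay above in 4 and Scgb3a2 in 2 AT2-Tracer sums. With a stricter gate, Scgb3a1 lay above in 1 BASC-Tracer and 1 AT2-Tracer sum, and Scgb3a2 in 3 BASC-Tracer and 0 AT2-Tracer sums. With 1000 or more genes per barcode Scgb3a1 lay above in 1 BASC-Tracer sum, and with 200 or more Scgb3a2 in 2 AT2-Tracer sums. With the 24 Club-Tracer lymphocytes as the immune cells, Scgb1c1 lay above in 4 of 9 Club-Tracer sums; lymphocytes could be used in that library alone, and endothelial cells, 3, 2 and 11 in number, in none.

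Counts of genes at least 2-fold higher moved with the CPM limit. At limits of 20 and 100 CPM they were 123 and 37 genes for Club-Tracer over AT2-Tracer AT2 cells, 71 and 18 for BASC-Tracer over AT2-Tracer AT2 cells, 265 and 82 for Club-Tracer over AT2-Tracer transitional cells, 120 and 39 for BASC-Tracer over AT2-Tracer transitional cells, and 611 and 208 for Club-Tracer over AT2-Tracer immune cells. At 100 CPM Club-Tracer over BASC-Tracer AT2 cells gave 6, and at 20 CPM Club-Tracer over BASC-Tracer club cells gave 14. A pseudocount of 20 gave 47 for BASC-Tracer over AT2-Tracer transitional cells. Without the members in the total, club cells gave 11 for Club-Tracer over BASC-Tracer and, within Club-Tracer, 196 over AT2 cells. Of the 5 genes most like each member, Spearman correlation shared 2 for Scgb1a1, 1 for Scgb3a1, 3 for Scgb3a2 and 2 for Scgb1c1, a pseudocount of 20 shared 3 for Scgb1a1 and 3 for Scgb3a2, and sums of 100 or more cells 3 for Scgb3a1, 3 for Scgb3a2 and 3 for Scgb1c1. The cause of these moves was not tested.

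Among single values, Scgb3a1 in Club-Tracer AT2 cells stood at 475 CPM with 1000 or more genes and at 506 CPM with the looser gate, against 65.6 CPM as reported, so its place at the immune level depends on the filter and the gate. Scgb3a2 in Club-Tracer over BASC-Tracer AT2 cells was 0.635 with the stricter gate, against 1.45. Scgb3a2 in Club-Tracer over AT2-Tracer transitional cells was 90.3 with 200 or more genes and 106 with the looser gate, against 5713. Leaving out the 1 immune barcode with the most UMIs in each library was chosen after seeing the data. Depth limits the Scgb1c1 ratios to immune cells, which held 1, 2 and 7 of its UMIs.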
